A study of Mus musculus with 6 samples.

Results

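The proteases described here are those that mast cells and basophils store in their granules together with granzyme B, given by 6 gene symbols: Cpa3, Tpsab1, Tpsb2, Tpsg1, Prss34 and Gzmb. The members were the probe sets other than controls that the platform annotation pairs with exactly 1 of these symbols. They came to 6 probe sets for 5 of the 18193 genes with a single-symbol probe set, since Prss34 had no such probe set and was not analysed here. Their signals were compared between 2 groups of 3 arrays in mouse (C57BL/6J) c-Kit+Sca-1+Lin- bone marrow cells, a sorting gate, abbreviated KSL, in which blood stem cells and early progenitors lie. All cells had spent 7 days on a layer of human umbilical vein endothelial cells (HUVEC), in medium without serum to which 5 mouse cytokine types (m5GF) were added. One group had received PBS and the other mD1R, and KSL cells were sorted again before RNA extraction. The labels do not spell out mD1R, which in the study is a fusion protein made of the receptor-binding part of Delta-like 1, a ligand of Notch receptors, and a peptide that directs it to endothelium. The labels call the 3 arrays of a group biological replicates, from an experiment done 3 times, and do not say whether cells from several animals were pooled.

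Mast cells and basophils hold large amounts of ready-made proteases, bound in their granules to the sulfated chains of the proteoglycan serglycin and released when the IgE receptor is cross-linked. Carboxypeptidase A3 trims amino acids from the C-terminal end of peptides, and tryptases are trypsin-like serine proteases, most of them stored as tetramers. Granzyme B is a serine protease best known from cytotoxic T cells and natural killer cells, and mouse mast cells and basophils can make it too.

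The sequences before the start sites of Cpa3, Gzmb and Tpsg1 are shown because the signals of these genes were higher with mD1R on every array. They are the 250 bases before the start in RefSeq (GRCm38.p6), written 5′ to 3′ on the gene's strand. Capitals mark matches on either strand to a GATA motif (the letters AGATAA, the letters AGATAG, the letters TGATAA or the letters TGATAG) or to a RUNX motif (TGTGGT), motifs of transcription factor families that act in blood cells. The first is at chr3:20242182-20242431 (minus strand), the second at chr14:56262335-56262584 (minus strand) and the third, from the first of the 2 listed Tpsg1 starts, at chr17:25369023-25369272 (plus strand).
Cpa3: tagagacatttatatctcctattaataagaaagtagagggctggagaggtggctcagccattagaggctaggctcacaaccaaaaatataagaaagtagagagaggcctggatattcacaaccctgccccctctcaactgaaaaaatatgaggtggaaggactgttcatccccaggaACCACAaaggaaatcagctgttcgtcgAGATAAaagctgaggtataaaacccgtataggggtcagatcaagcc
Gzmb: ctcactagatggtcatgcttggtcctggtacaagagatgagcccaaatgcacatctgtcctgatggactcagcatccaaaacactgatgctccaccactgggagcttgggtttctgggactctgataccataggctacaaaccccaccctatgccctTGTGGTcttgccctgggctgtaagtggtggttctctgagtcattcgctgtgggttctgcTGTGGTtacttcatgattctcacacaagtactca
Tpsg1: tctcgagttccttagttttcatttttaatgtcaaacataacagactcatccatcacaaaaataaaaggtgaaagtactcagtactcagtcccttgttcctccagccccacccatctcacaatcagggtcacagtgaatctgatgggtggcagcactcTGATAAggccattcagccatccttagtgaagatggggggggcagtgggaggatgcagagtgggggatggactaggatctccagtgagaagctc
The Cpa3 window held AGATAA from 46 to 41 bases before the start and TGTGGT on the opposite strand from 73 to 68 bases before it. The Gzmb window held TGTGGT at 93 to 88 and at 34 to 29 bases before the start and no GATA match. The printed Tpsg1 window held TGATAA at 93 to 88 bases before the start and no RUNX match. The window of the other Tpsg1 start, at chr17:25370303-25370552 and not printed, held TGTGGT at 206 to 201, 166 to 161 and 53 to 48 bases before that start and no GATA match. Among all 32851 promoter windows of this length, 26.5% held a GATA match and 14.0% a RUNX match, so such matches are common, and no match overlapped another. The window of Prss34 held AGATAA at 31 to 26 bases before the start. The E-box CATGTG, a motif bound by the mast cell factor Mitf, was in the Prss34 window alone among these genes and in 12.3% of all windows. The letters TGGGAA, part of the Notch effector Rbpj's motif, were in none of these windows and in 21.6% of all. Tpsab1 and Tpsb2 were not among the sequences used here.

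With mD1R, Cpa3, Tpsg1 and Gzmb rose, and the 2 probe sets of Tpsb2 did not pass the test. These 3 of 5 tested member probe sets passed as higher in limma (adjusted p under 0.05 by Benjamini-Hochberg over 27022 kept probe sets), where 12.6% of all kept probe sets passed in either direction and 6.13% as higher. A probe set was kept where its mean log2 signal was at or above the 40th percentile, 5.27, and Tpsab1 lay below it. Tpsg1 and the Tpsb2 probe set 1422180_a_at were kept only through their mD1R signals, so the count is a description. The groups did not overlap in these 3 member probe sets, with mD1R above PBS, as in 17.3% of all kept probe sets, while 18.6% lay below without overlap. In bulk RNA, more cells of a type and more RNA per cell cannot be told apart. The 3 calls were lost without PBS replicate 3, where limma called 0 of the kept probe sets, 5853 of them had an unadjusted p under 0.05, and the smallest adjusted p of all was 0.0675. In that setting the 3 genes still had an unadjusted p under 0.05, and their changes were 2.53 for Cpa3, 4.71 for Tpsg1 and 1.47 for Gzmb.

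Cpa3, the mast cell carboxypeptidase, had log2 signals of 12.16, 11.69 and 11.17 in PBS replicates 1, 2 and 3 and of 14.33, 14.40 and 14.61 in mD1R replicates 1, 2 and 3. Every mD1R array was above every PBS array, with a gap of 2.18 between the lowest mD1R and the highest PBS value, and the mD1R arrays lay closer together. The means were 11.67 ± 0.49 (SD, n = 3) with PBS and 14.45 ± 0.14 with mD1R. The change was 2.78 ± 0.26 (log2, SE; limma adjusted p = 0.00778), a 6.86-fold rise with a 95% interval of 4.55 to 10.33. Among 12320 genes with a kept probe set, it had the 10th smallest p and the 74th largest rise. Its linear MAS5 signals were 2304 to 4562 with PBS and 20666 to 25002 with mD1R, so the gene was read well above the dim end of the array in both groups.

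Tpsg1 encodes gamma tryptase, also called transmembrane tryptase, which keeps a membrane anchor where the other tryptases are soluble. Its log2 signals were 4.29, 3.29 and 4.69 on the PBS arrays and 9.0, 8.68 and 7.81 on the mD1R arrays. The groups were apart by 3.12, and mD1R replicate 3 was the lowest of its group. The means were 4.09 ± 0.72 (SD, n = 3) and 8.50 ± 0.62, and the change was 4.41 ± 0.48 (log2, SE; limma adjusted p = 0.00961). The PBS mean lay under the filter of 5.27, so the probe set was kept only through its mD1R signals. With no filter it passed too (adjusted p = 0.00952). The fold of 21.2 (95% interval 9.82 to 45.9) is imprecise because the linear PBS signals, 9.76 to 25.9, were dim. With 32 added to every linear signal before the log the change was 2.98, a fold of 7.91, and it still passed.

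Tpsb2, the tryptase known as mouse mast cell protease 6, was read by 2 probe sets that disagreed in size and gave no call. On 1422180_a_at the log2 signals were 5.45, 2.53 and 4.86 with PBS and 5.33, 8.74 and 6.24 with mD1R. The groups overlapped, since mD1R replicate 1 was below PBS replicate 1, and the 8.74 of mD1R replicate 2 stood above the rest. The change was 2.49 ± 1.02 (log2, SE; limma adjusted p = 0.148) with a 95% interval of 0.14 to 4.84. It was 1.50 without mD1R replicate 2, 1.61 without PBS replicate 2, 1.45 with 32 added to the linear signals, and 3.61 when arrays were weighted, the one setting in which it passed (adjusted p = 0.0410). On 1451802_at the log2 signals were 6.00, 5.20 and 4.66 with PBS and 5.45, 6.39 and 4.77 with mD1R. The groups overlapped throughout, and the change of 0.25 ± 0.56 (limma adjusted p = 0.805) had a 95% interval of -1.04 to 1.54. Both probe sets had their highest signal on mD1R replicate 2.

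Tpsab1, the tryptase known as mouse mast cell protease 7, is listed by RefSeq for C57BL/6J, the strain used here, as a transcribed pseudogene. Its log2 signals on 1426175_a_at were 4.66, 4.74 and 4.04 with PBS and 4.49, 6.23 and 4.39 with mD1R. The groups overlapped, with mD1R replicate 2 alone above all PBS arrays, as on the Tpsb2 probe set 1451802_at. The mean of 4.76 was below the filter. With no filter the change was 0.56 ± 0.68 (limma adjusted p = 0.711), with a 95% interval of -0.98 to 2.09. Tpsab1 and Tpsb2 are closely related genes, and signal that one probe set takes from the other's transcript cannot be told apart here.

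Gzmb, which encodes granzyme B, had log2 signals of 12.65, 13.19 and 12.87 with PBS and of 14.35, 14.23 and 14.60 with mD1R. Every mD1R array was above every PBS array, by at least 1.04. The means were 12.91 ± 0.27 (SD, n = 3) and 14.39 ± 0.19, and the change was 1.49 ± 0.20 (log2, SE; limma adjusted p = 0.0109), a 2.80-fold rise with a 95% interval of 2.03 to 3.86. The linear signal was already 6447 to 9366 with PBS and reached 19225 to 24756 with mD1R.

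**Figure D1:**
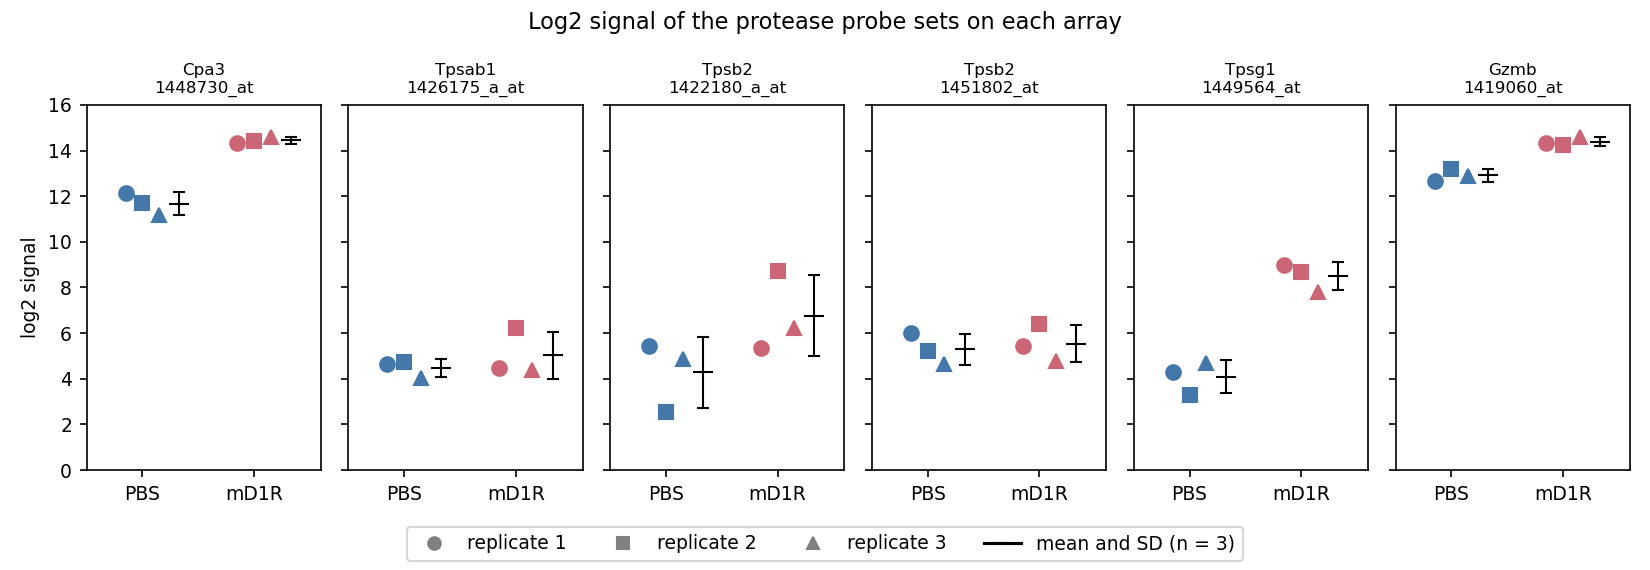
Log2 MAS5 signal (vertical axis) of the 6 probe sets on each array, PBS in blue and mD1R in red, with marker shape for the replicate number and black bars for the mean and SD (n = 3). Cpa3, Tpsg1 and Gzmb have all mD1R arrays above all PBS arrays, whereas both Tpsb2 probe sets and Tpsab1 overlap.

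The changes were set against the settings of the analysis. Over 16 alternatives, Cpa3 ranged from 2.53 to 3.02 and Gzmb from 1.33 to 1.63, and both passed in 15 of them, all but the one without PBS replicate 3. Tpsg1 could be fitted in 15 alternatives, since it lay below the filter at the 60th percentile, ranged from 2.98 to 4.75 and passed in 14. The BioB hybridisation control relative to the other spiked controls splits the arrays into 2 sets that cross the groups, called spike-in batches here: PBS replicate 1 with mD1R replicates 1 and 2, and the other 3 arrays. Within these batches the changes of Cpa3 were 2.21 and 3.18, of Tpsg1 4.55 and 3.82, and of Gzmb 1.64 and 1.56, each resting on a single array of 1 group. The 3 genes were thus higher with mD1R in both batches. For Tpsb2 they were 1.58 and 2.55 on 1422180_a_at and -0.080 and -0.16 on 1451802_at.

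**Figure D2:**
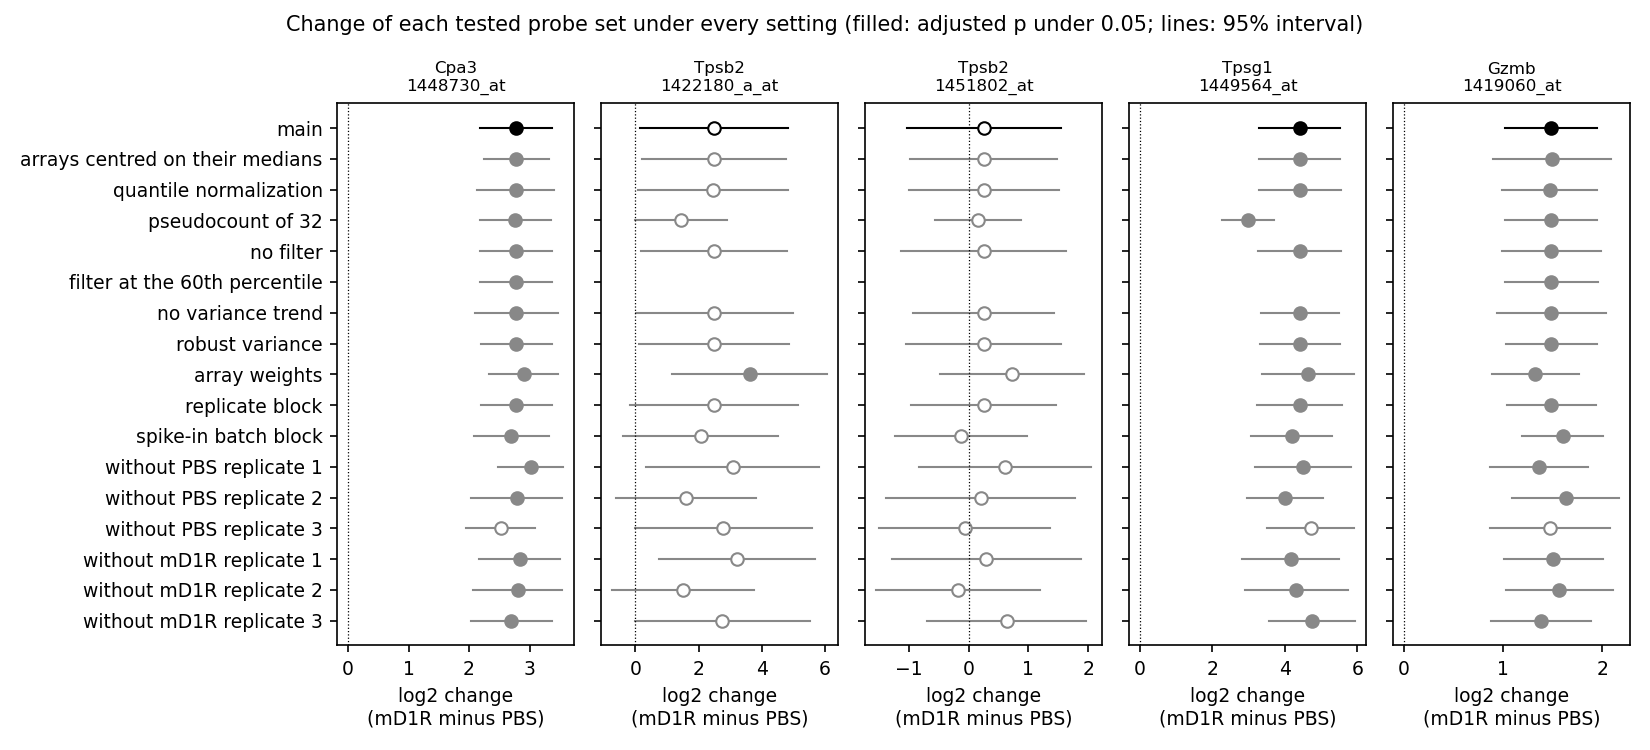
Log2 change (mD1R minus PBS, horizontal axis, a scale of its own in each panel) of the 5 tested probe sets in the main fit and each alternative, with 95% intervals. Filled points passed adjusted p 0.05. Cpa3, Tpsg1 and Gzmb stay on the higher side throughout and are open only without PBS replicate 3, and Tpsb2 is filled only for 1422180_a_at with array weights.

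The mD1R arrays did not rank these genes alike. On the first principal component of all kept probe sets, which held 56.9% of the variance, mD1R replicate 3 lay at 12.6, between the PBS arrays (-79.4 to -64.5) and the other mD1R arrays (93.6 and 108.4). Cpa3 and Gzmb had their highest mD1R signal on that array and Tpsg1 its lowest. Of the 1046 genes that passed as higher, mD1R replicate 3 was the highest of its group in 14.9% and the lowest in 65.8%. Cpa3 and Gzmb shared the first place with 7 other mast cell or basophil genes: Mcpt8, Fcer1a, Ms4a2, Slc18a2, Gata2, Cd200r3 and Cyp11a1. Mcpt8, a basophil protease, lay 1.83, 1.99 and 2.68 (log2) above its PBS mean on mD1R replicates 1, 2 and 3. Fcer1a, the IgE-binding chain of the IgE receptor, had 12.15, 12.56 and 13.96. Tpsg1 was lowest on replicate 3 together with the chymase genes Cma1, Mcpt1, Mcpt2 and Mcpt4 and with Mitf. Mcpt2 had 10.99, 12.19 and 8.12 on the mD1R arrays, and Cma1 13.29, 13.40 and 11.32. These 15 genes are all those of the set and of the mast cell, basophil and chymase lists that passed as higher. Their order over 3 arrays is a description, and no test was made of it. As mD1R replicate 3 is the only mD1R array of its spike-in batch, the array and the batch cannot be told apart here.

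**Figure D3:**
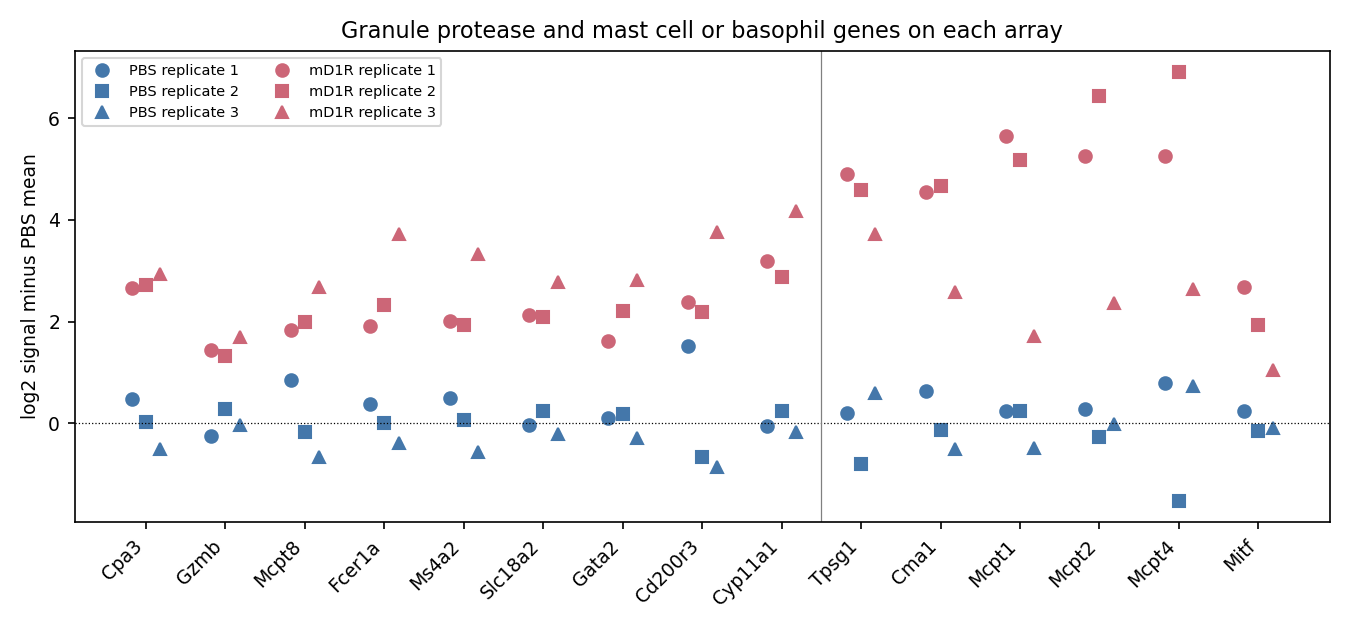
Log2 signal minus the gene's PBS mean (vertical axis) on each array for the 15 genes, PBS in blue and mD1R in red, with marker shape for the replicate number. Left of the grey line are the 9 genes with mD1R replicate 3 (triangle) highest of its group, Cpa3 and Gzmb among them, and right of it the 6 genes with it lowest, Tpsg1 among them.

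The genes with the most similar signal over the 6 arrays were taken by Pearson r. For Cpa3, Tpsg1 and Gzmb it mostly follows the difference between the groups. Tpsb2 and Tpsab1 were highest on mD1R replicate 2, and so were all the genes named below as nearest to them. Members and genes known only by a clone or predicted-gene symbol were left out. Of the rest, those with an r above 0.95 numbered 228 for Cpa3, 291 for Tpsg1 and 206 for Gzmb, and 21 for Tpsb2 and 13 for Tpsab1. Nearest to Cpa3 were Dhcr7, the last enzyme of cholesterol synthesis (r = 0.998), Bivm (0.997) and Phf13 (0.996), of which Phf13 did not pass the test (adjusted p = 0.0545). Nearest to Gzmb were Tmcc3 (0.998), Vopp1 (0.998) and Srxn1, which encodes sulfiredoxin (0.995). Calu, a calcium-binding protein gene of the secretory pathway (0.994), Atraid (0.994) and Iqsec2 (0.991) were nearest to Tpsg1. Nearest to Tpsb2 (1422180_a_at) were Gpt (0.997), Sycp3 (0.989) and Vmac (0.978), none of which passed the test. Nearest to Tpsab1 were Smad6 (0.975), Btbd2 (0.973) and Pltp (0.973), which did not pass either. Among the members, r was 0.939 between Cpa3 and Gzmb, 0.929 between Cpa3 and Tpsg1 and 0.893 between Gzmb and Tpsg1. It was 0.548 between the 2 Tpsb2 probe sets and 0.828 between Tpsab1 and the Tpsb2 probe set 1451802_at.

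The machinery that stores and releases granule proteases moved in part. Of 42 genes listed, 36 were tested and 7 rose, 0 fell and 29 did not pass, against 8.49% higher and 7.09% lower among all 12320 genes. The same all-gene shares are the background for the counts of every list below. The list's median change was 0.26, against 0.09 over all genes, with 0.32 and 0.19 in the spike-in batches. Slc18a2, which loads amines into granules, rose by 2.34 ± 0.24 (log2, SE), and the membrane fusion gene Stx4a by 0.97 ± 0.17. Lamp1, a granule and lysosome membrane protein gene, rose by 1.03 ± 0.20 and Rab27b, a GTPase of granule docking, by 2.20 ± 0.49, although 3 other Rab27b probe sets did not pass. Srgn, which encodes the serglycin core that binds these proteases, had log2 signals of 14.58, 14.74 and 14.80 with PBS and 14.36, 14.74 and 15.14 with mD1R. It did not pass (change 0.04 ± 0.23). Ndst2, the sulfotransferase needed for mast cell heparin, rose by 0.96 ± 0.22. Srgn and Ndst2 were chosen after their values were seen, as were other probe sets of Rab27a, which passed as lower. Without PBS replicates 1, 2 and 3 in turn, 3, 2 and 0 genes of this list rose, without mD1R replicate 2, 1 rose, and without mD1R replicate 3, 9 rose and 6 fell. With no variance trend 3 rose, with array weights 11 rose and 5 fell, and blocking on the replicate number gave 9 that rose and 4 that fell.

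Lysosomal proteases, some of which cut granule proteases to their active form, were mostly higher. Of 15 tested genes 10 rose and 1 fell, with a median change of 1.08 (1.18 and 0.70 in the spike-in batches). The list is mainly of cysteine and aspartic proteases but holds 3 serine peptidase genes, Ctsa, Dpp7 and Tpp1, which all rose. Without these, in a count made after the data were seen, 7 of 12 tested genes rose and 1 fell, with a median of 0.81. Lgmn, which encodes legumain, rose by 2.42 ± 0.32, Ctsk by 2.69 ± 0.38 and Ctsb by 1.09 ± 0.18, all cysteine proteases. Tpp1 rose by 1.37 ± 0.25. Ctsc encodes the dipeptidyl peptidase that activates granule serine proteases and was chosen after its values were seen. It had 13.01, 13.60 and 13.66 with PBS and 13.84, 14.54 and 13.91 with mD1R and did not pass (0.68 ± 0.26, adjusted p = 0.129). The Ctsc groups did not overlap. Without PBS replicates 1, 2 and 3, 3, 2 and 0 of this list rose, and without mD1R replicate 2, 2 rose. With no variance trend 7 rose and 0 fell, without mD1R replicate 1, 8 rose and 0 fell, and 2 fell with array weights, with the replicate block or without mD1R replicate 3.

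Protease inhibitors were higher in part, with 7 of 17 tested genes rising and 1 falling (median 0.92, and 0.66 and 0.80 in the spike-in batches). Spint1, a Kunitz inhibitor of trypsin-like proteases, rose by 2.18 ± 0.37, and Serpinb8 by 1.56 ± 0.29. Serpinb9, which blocks granzyme B, had 8.38, 8.85 and 8.46 with PBS and 9.81, 9.64 and 9.46 with mD1R and rose by 1.07 ± 0.21 (log2, SE). The other kept probe set of Serpinb9 had a change of 1.06 and did not pass. The cystatin gene Cstb rose by 1.08 ± 0.20. Serpinb1a, chosen after its values were seen, was the gene that fell (-1.89 ± 0.46), and its other kept probe set passed as lower. Without PBS replicates 1, 2 and 3, 2, 1 and 0 genes of this list rose, and without mD1R replicates 1 and 2, 4 and 1 rose. With no variance trend 5 rose and 0 fell, and with the replicate block 2 fell. Without any one PBS array or mD1R replicates 1 or 2, 0 fell.

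Relatives of the members did not share one direction. Among all genes 8.49% passed as higher and 7.09% as lower. Among other carboxypeptidases 10 of 16 genes lay below the filter, and of 4 tested 1 rose and 1 fell (median 0.11). Cpm fell by 2.64 ± 0.53 and Cpd rose by 0.79 ± 0.21, a call lost with arrays centred on their medians, with no filter, with no variance trend, with a block for spike-in batch and when mD1R replicate 1 was left out. Other probe sets of Cpd did not pass. Cpm was below the filter at the 60th percentile. Of this list 0 passed without PBS replicates 1, 2 or 3 or mD1R replicate 2, each left out in turn. Of 7 tested trypsin-like proteases 0 passed in limma and 1, higher, had an unadjusted p under 0.05. Under that level lay 8048 of the 27022 kept probe sets in the main fit. Prss16, a thymic serine protease gene listed with them that is not of the trypsin family and was set apart after the data were seen, fell by 2.78 ± 0.43. Its call was lost without PBS replicates 2 or 3 and without mD1R replicate 2. Among other granzymes and perforin 6 of 10 genes lay below the filter, and of 4 tested 0 rose (0 at an unadjusted p under 0.05) and 1 fell. That gene was Gzma, with 10.71, 10.63 and 10.93 on the PBS arrays and 9.94, 8.77 and 8.40 on the mD1R arrays. Gzma fell by 1.72 ± 0.37, and lost its call without any one of the PBS arrays or mD1R replicate 2. Of 3 tested serine proteases of neutrophils 0 passed in limma, and 2 were lower at an unadjusted p under 0.05. Mpo, the myeloperoxidase gene listed with them, is no protease and was left out of these counts after the data were seen. Mpo had 7.39, 9.77 and 13.93 on the mD1R arrays and Prtn3 8.22, 11.10 and 13.52, against 14.08 to 14.68 for these genes with PBS. Without mD1R replicate 3, 3 of the 4 genes of the list, Mpo counted, fell, as with array weights, and 2 fell when the replicate number was a block. In the list of chymases, Mcpt8 and cathepsin G, 5 of 6 tested genes rose (median 4.06, and 4.57 and 2.71 in the spike-in batches), with Cma1 by 3.94 ± 0.55, Mcpt8 by 2.17 ± 0.40, Mcpt2 by 4.69 ± 0.88 and Mcpt4 by 4.94 ± 1.08. The PBS signals of Mcpt4, 3.65 to 18.2 on the linear scale, were dim and its PBS mean was under the filter, so the size of its change is uncertain. Without PBS replicates 1, 2 and 3, 2, 1 and 0 genes of that list passed, and without mD1R replicates 1 and 2, 3 and 1.

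**Figure D4:**
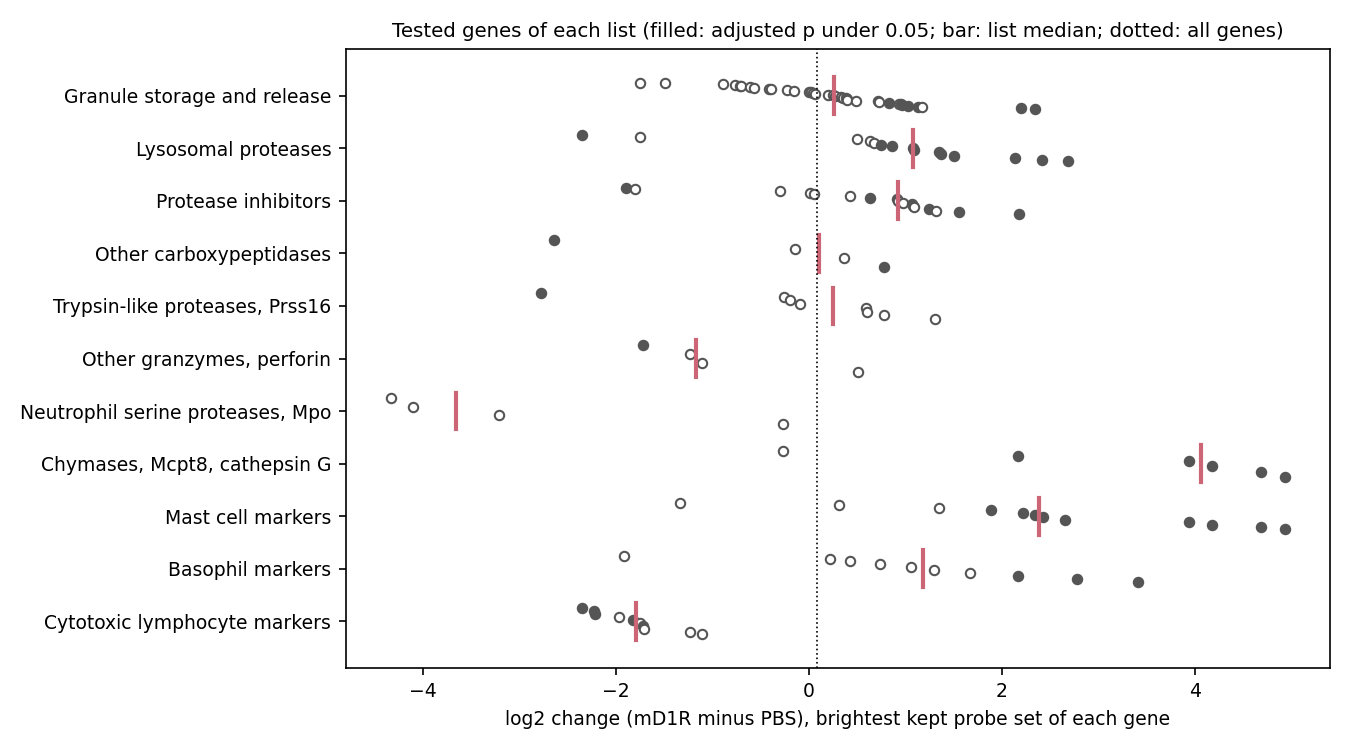
Log2 change (mD1R minus PBS, horizontal axis) of every tested gene in 11 lists, filled where adjusted p was under 0.05, with the median of the full list, Prss16 and Mpo included, as a red bar and the median of all genes as a dotted line at 0.09. The neutrophil list, other granzymes and cytotoxic lymphocyte markers have medians below 0, and the chymase list and mast cell markers have the highest medians, 4.06 and 2.39. Lists share some genes, and Cma1, Mcpt1, Mcpt2 and Mcpt4 count in both the chymase list and the mast cell markers.

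Position along the chromosome was set beside the changes, using the order of protein-coding genes in RefSeq and the 8 genes on each side of a locus. The tryptase genes lie in the order Prss34, Prss28, Prss29, Tpsab1, Tpsb2 and Tpsg1. Prss29, within that run, had 6.61, 6.83 and 6.02 with PBS and 6.26, 5.97 and 6.46 with mD1R and did not pass, and Prss28 lay below the filter. Of 10 tested neighbours of this locus, 1 rose and 2 fell, with a median change of 0.08. Among all genes 8.49% passed as higher and 7.09% as lower, with a median change of 0.09. Gzmb lies at the end of a run of granzyme genes that continues to Ctsg and Mcpt8, where the window of 8 genes ends. Genes beyond Mcpt8 are not in the counts by position, whatever their change. Gzmc, next to Gzmb, had 5.60, 7.33 and 6.89 with PBS and 6.72, 7.00 and 7.63 with mD1R and did not pass (0.51 ± 0.48). Between Gzmc and Ctsg, the 5 genes Gzmf, Gzmn, Gzmg, Gzmd and Gzme lay below the filter. Of 9 tested neighbours of Gzmb, 1 rose, Mcpt8, and 1 fell, and of 8 tested neighbours of Cpa3, 0 rose in limma and 1 fell, Ect2, a gene of cell division, by 1.71 ± 0.30. Cpb1, the carboxypeptidase gene next to Cpa3, lay below the filter, at 0.21, 3.73 and 2.18 with PBS and 6.32, 4.06 and 4.90 with mD1R.

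**Figure D5:**
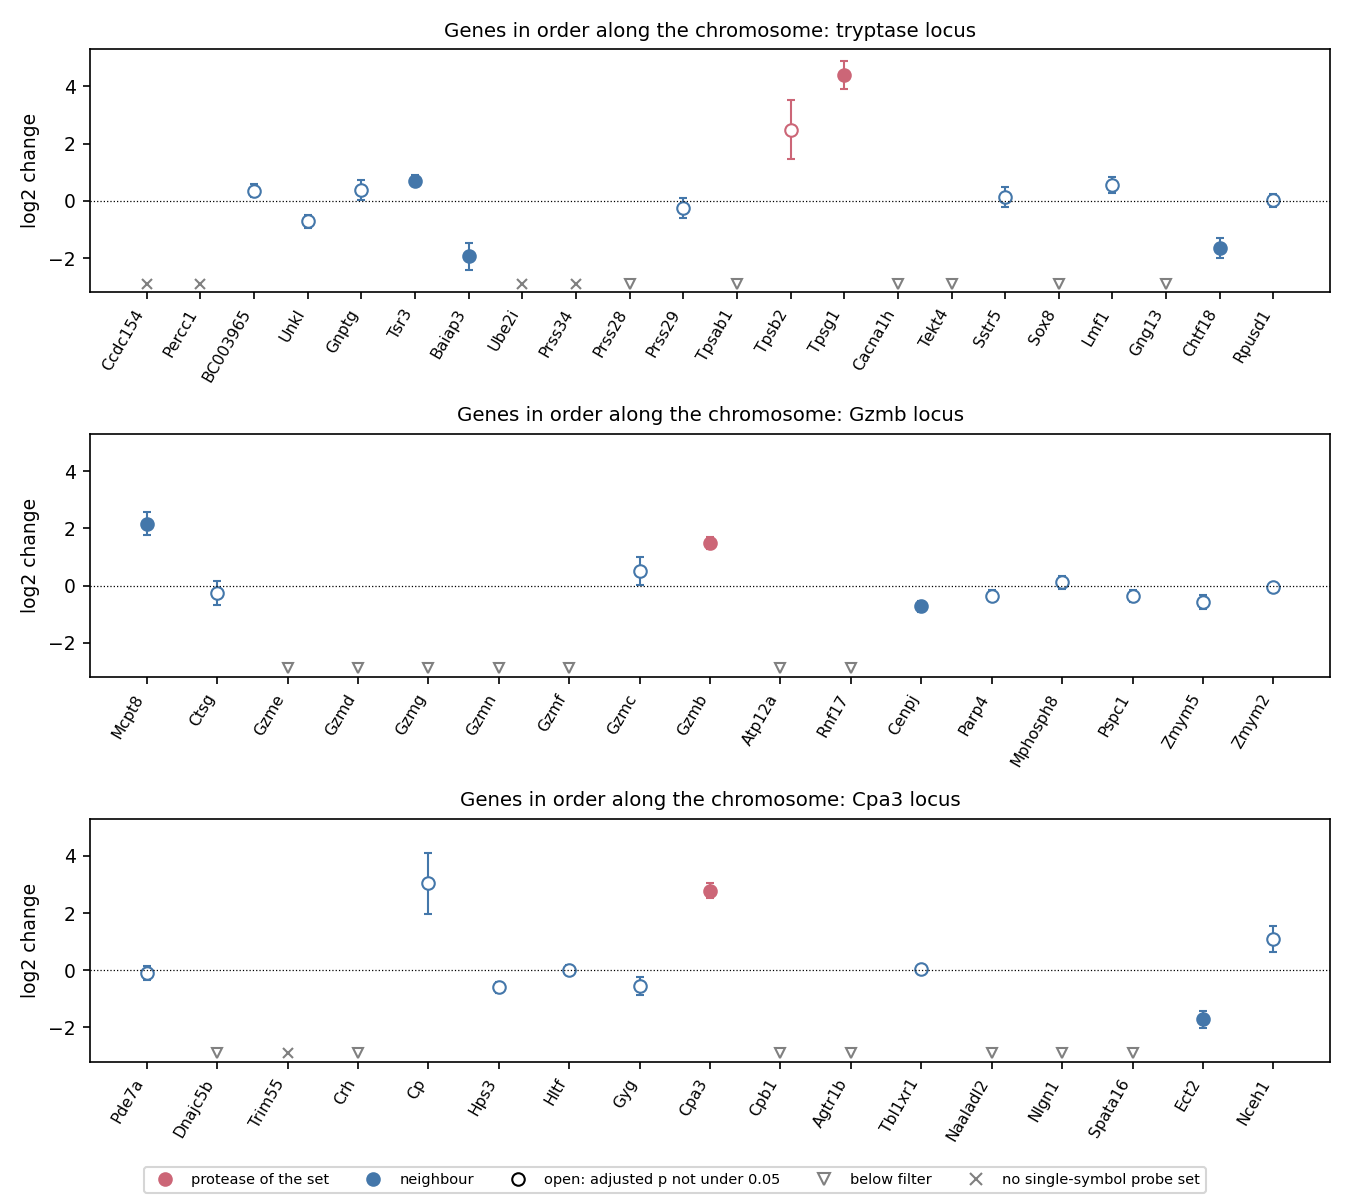
Log2 change (mD1R minus PBS, vertical axis, bars SE) of genes in chromosomal order around the tryptase genes, Gzmb and Cpa3, with equal spacing and no distances. Proteases of the set are red, neighbours blue, filled points passed adjusted p 0.05, and grey symbols mark genes below the filter or with no single-symbol probe set. Tpsg1, Gzmb and Cpa3 are the highest tested genes of their panels except for Mcpt8 near Gzmb and Cp near Cpa3.

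Markers of the cell types that make these proteases were measured on the same arrays. Of 16 mast cell markers 12 were tested and 9 rose (median 2.39), where 8.49% of all genes passed as higher. The sum of the linear signals of 14 markers was 28388 to 35553 with PBS and 57661 to 73320 with mD1R. Cma1, Mcpt1, Mcpt2 and Mcpt4 are also in the chymase list and Slc18a2 in the granule machinery list, so these counts overlap. Mcpt8 is in the chymase list and among the basophil markers. Besides Slc18a2 and Cma1, Gata2, a factor of mast cells and stem cells, rose by 2.22 ± 0.30 and Fcer1a by 2.66 ± 0.45. Kit did not pass (1.35 ± 0.49), and neither did Hdc, the histamine-forming enzyme gene (-1.34 ± 0.55), which was chosen after its values were seen, as was Prf1, described with the lymphocyte markers. Rgs13 was listed at 0 on 1 array. Of 11 basophil markers 10 were tested and 3 rose (median 1.18, with 0.32 and 2.06 in the spike-in batches): Cyp11a1 by 3.41 ± 0.33, Mcpt8 by 2.17 ± 0.40 and Cd200r3 by 2.78 ± 0.67. Il18rap of the same list, chosen after its values were seen, was at 10.99, 11.58 and 11.68 with PBS and 8.40, 9.27 and 10.82 with mD1R and did not pass (-1.92 ± 0.55, adjusted p = 0.0565), although its other probe set passed as lower. In this list 1 gene fell with a pseudocount of 32, with the filter at the 60th percentile, with array weights, with either block and without mD1R replicate 3, and with array weights 5 rose. The summed signal of the basophil markers was 19266 to 23678 with PBS and 34032, 39654 and 74326 on mD1R replicates 1, 2 and 3. Mcpt8 alone gave 3197 to 9145 of this sum with PBS and 18131 to 32728 with mD1R. The sum therefore leans on this gene and is no measure of the whole list. Without PBS replicates 1, 2 and 3, 5, 3 and 0 mast cell markers and 4, 1 and 0 basophil markers rose, and without mD1R replicate 2, 5 and 1 did. With array weights or without mD1R replicate 3, 1 mast cell marker fell. Their part in the changes of Cpa3, Tpsg1 and Gzmb was not tested.

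Cytotoxic lymphocytes are a known source of granzyme B. Of 13 of their markers 10 were tested, 5 fell and 0 rose (0 at an unadjusted p under 0.05), and their median change was -1.78 (-2.53 and -1.43 in the spike-in batches). Their summed signal was 5265 to 9352 with PBS and 1683 to 3011 with mD1R, and none was listed at 0. Klrd1 fell by 2.22 ± 0.40, Il2rb by 2.22 ± 0.42, Ncr1 by 2.35 ± 0.47 and Eomes by 1.82 ± 0.38. The markers Prf1, Gzma, Gzmk and Gzmm are also in the list of other granzymes and perforin, so those counts overlap. Prf1, which encodes the pore protein perforin that acts with granzyme B, had 6.99, 6.40 and 6.81 with PBS and 5.77, 6.21 and 4.91 with mD1R and did not pass (-1.10 ± 0.42). Without PBS replicates 1, 2 and 3, 1, 0 and 0 of these markers fell, and without mD1R replicate 2, 0 fell. With the filter at the 60th percentile 2 fell. Their part in the change of Gzmb was not tested.

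Markers of other cell types also moved with the groups. Among all genes 8.49% passed as higher and 7.09% as lower. The neutrophil markers include Mpo, Elane, Prtn3 and Ctsg, which are also in the list of neutrophil serine proteases. Of 12 neutrophil markers 1 fell, Mmp9 (-4.38 ± 1.13, not past the threshold with no variance trend or with robust variance), and their summed signal was 291543 to 369505 with PBS and 57972, 158756 and 365274 on the mD1R arrays. Of 9 monocyte and macrophage markers 6 rose and 1 fell, among them Ms4a7 (2.15 ± 0.21), Msr1 (2.29 ± 0.31) and Cd68 (1.74 ± 0.27), with summed signals of 72209 to 84641 and 124476 to 175942. Of 7 plasmacytoid dendritic cell markers, a cell type that can make granzyme B, Bst2 rose by 1.75 ± 0.25, and Siglech fell by 2.81 ± 0.56 and Ccr9 by 2.90 ± 0.76. Their summed signal was 8817 to 13592 with PBS and 12473 to 16616 with mD1R. Of 4 tested endothelial markers 1 rose, Pecam1, by 1.41 ± 0.31, and the summed signal of 7 was 832 to 1596 and 1975 to 4356. Of 5 tested genes of the KSL gate 0 passed in limma, and 2 had an unadjusted p under 0.05. In the main fit 8048 of the 27022 kept probe sets had such a p. Ly6a, which encodes Sca-1, was not analysed here for want of a probe set with a single symbol. The 7 plasmacytoid, 9 macrophage, 12 neutrophil and 7 endothelial markers had no signal listed at 0. The part of these cell types in the changes of the proteases was not tested. With array weights 6 neutrophil markers fell and with the replicate block 3. Without mD1R replicate 3, 7 fell, and without mD1R replicates 1 or 2 or any one PBS array, 0 did. The macrophage markers that rose came to 3, 3 and 0 without PBS replicates 1, 2 and 3, and to 3 without mD1R replicate 2, and 0 fell without any one PBS array. The Pecam1 call was lost without any one PBS array or mD1R replicate 2 and with no variance trend. Of the plasmacytoid markers, 1 fell in place of 2 with no filter, no variance trend, robust variance or array weights and without PBS replicate 1 or mD1R replicate 3, and 0 fell without PBS replicates 2 or 3 or mD1R replicates 1 or 2. Of the KSL gate genes 1 rose without mD1R replicate 3, with array weights and with either block. The Bst2 call was lost without PBS replicate 3. With either block 2 endothelial markers rose.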

How the data were processed

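Total RNA of 6 samples was labelled with biotin and measured on Affymetrix 3 prime expression arrays. The values deposited by the authors are log2 signals of 45101 probe sets, 64 of them controls, made with MAS5, per the submitters' processing notes, whose version is not given. Every array had a linear 2% trimmed mean of 500.0 and 239 to 422 values listed at 0, per the deposited values. MAS5 subtracts mismatch signals, which makes dim values noisy. Detection calls were not used here. The platform annotation gave 1 symbol to 34945 probe sets, several to 932, which were not named, and did not list 9160.

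The log2 values were fitted with limma 3.58.1 in R 4.3.3 (lmFit, eBayes with a variance trend, two-sided), mD1R minus PBS, on 27022 probe sets at or above the 40th percentile of mean signal. For gene counts the brightest kept probe set stood for its gene. Intervals are limma's, and the number of arrays limits their precision. The fit was tested on simulated data with no batches and no outlying array, so that test does not cover these features of the real arrays. The members, the gene lists and the spike-in batches were chosen with earlier results of these data known, so list counts are descriptions. The genes named were all members and, per list, up to 4 past the threshold by smallest p, otherwise 2. Other genes are marked in the text as chosen with their values known, except neighbours, which were taken by position, and the genes nearest in signal, 3 per member. Counts without genes of another enzyme class were added after the data were seen. Alternatives covered scaling, a pseudocount of 32, the filter, the variance model, array weights, blocks and leaving out each array. P-values set the difference between the groups against the spread of these samples within a group, which limma moderates over all kept probe sets.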

Additional observations from a re-analysis of the deposited data

How the results depend on the processing

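Of the 5 tested member probe sets, 3 passed in the main fit and, with arrays left out one at a time, 0 to 3 did. All kept probe sets past the threshold numbered 3413, 2213 with no variance trend and 6508 with array weights, and 0 to 5554 with 1 array left out. Genes of all lists past the threshold numbered 56, of which 43 were higher and 13 lower. Among all 12320 genes 8.49% passed as higher and 7.09% as lower. With 1 array left out, which also lowers the precision, 0 to 77 genes of the lists passed. The Tpsb2 probe set 1451802_at, at 0.25 in the main fit and never called, turned to -0.12 with a block for spike-in batch, -0.06 without PBS replicate 3, -0.18 without mD1R replicate 2, and -0.080 and -0.16 within the batches (-0.18 to 0.64 with 1 array left out), and the cause was not tested. Deviations of same-numbered arrays from their group means correlated at 0.31, 0.03 and 0.13 for replicates 1, 2 and 3. Arrays with different numbers correlated at -0.22 to 0.15. These values do not settle whether the numbers pair the samples, and the main fit did not pair them. With the replicate block 4619 probe sets passed, and 3 member probe sets as before. Dim signals limit Tpsb2, Tpsab1 and the size of the Tpsg1 change.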
